A study of Arabidopsis thaliana with 6 samples.

Results

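PR5 (AT1G75040), FRK1 (AT2G19190) and ALD1 (AT2G13810) are 3 Arabidopsis thaliana genes widely used as readouts of plant immunity. They were taken by gene identifier from a deposited table of 1537 genes, and all 3 were found there. The table compares whole seedlings of the Columbia wild type (Col-0) with seedlings of the same ecotype that carry BIC1-YFP, a fusion of BIC1 with a yellow fluorescent tag. Each genotype has 3 libraries, which the labels call biological replicates, from seedlings 10 days old raised on plates of MS medium in long days. No pathogen, elicitor or hormone treatment is named for either genotype. The sources used here do not give the promoter behind the BIC1-YFP construct, the number of lines or the plants pooled per library. BIC1 is best known for blocking cryptochromes, the blue-light receptors of plants, and the title of the study names it a coactivator for growth under the steroid hormone brassinosteroid.

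Salicylic acid is a plant hormone that builds up after infection and switches on pathogenesis-related genes through the receptor NPR1. PR5 encodes a thaumatin-like protein secreted to the cell wall space and is read as a marker of salicylic acid responses. FRK1 encodes a leucine-rich repeat receptor kinase whose transcript is induced early when cells sense bacterial flagellin, a pattern-triggered response. ALD1 is an aminotransferase that starts the synthesis of pipecolic acid, from which the mobile signal N-hydroxypipecolic acid of systemic acquired resistance is made. WRKY transcription factors, which bind the letters TTGAC (the W-box core), and TGA factors, which bind TGACG, act on many genes of these responses.

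PR5 lies on chromosome 1 from 28177670 to 28179022 on the plus strand, with 2 exons and a transcript of 1095 bases. FRK1 lies on chromosome 2 from 8326049 to 8329944 on the minus strand, with 13 exons and a transcript of 2700 bases. ALD1 lies on chromosome 2 from 5768417 to 5772266 on the plus strand, with 10 exons and a transcript of 1571 bases. These positions are from the RefSeq annotation of assembly TAIR10.1; the submitters name TAIR10, and the deposited table gives no positions. The 300 bases before each annotated start are shown because PR5 and FRK1 fell together while ALD1 rose. Capitals mark TTGAC or TGACG on either strand, the letters read in reverse as GTCAA or CGTCA.
PR5, chr1:28177370-28177669 (plus strand): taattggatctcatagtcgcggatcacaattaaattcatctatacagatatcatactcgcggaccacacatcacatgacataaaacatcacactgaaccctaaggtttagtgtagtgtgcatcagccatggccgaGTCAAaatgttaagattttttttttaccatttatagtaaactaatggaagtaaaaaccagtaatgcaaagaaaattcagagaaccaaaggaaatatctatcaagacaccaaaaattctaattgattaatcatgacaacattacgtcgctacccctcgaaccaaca
FRK1, chr2:8329945-8330244 (minus strand): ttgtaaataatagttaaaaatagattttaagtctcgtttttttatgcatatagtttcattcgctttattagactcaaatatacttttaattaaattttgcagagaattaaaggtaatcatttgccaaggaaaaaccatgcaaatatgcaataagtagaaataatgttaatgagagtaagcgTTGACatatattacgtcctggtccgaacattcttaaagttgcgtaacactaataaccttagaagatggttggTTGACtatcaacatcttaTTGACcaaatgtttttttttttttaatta
ALD1, chr2:5768117-5768416 (plus strand): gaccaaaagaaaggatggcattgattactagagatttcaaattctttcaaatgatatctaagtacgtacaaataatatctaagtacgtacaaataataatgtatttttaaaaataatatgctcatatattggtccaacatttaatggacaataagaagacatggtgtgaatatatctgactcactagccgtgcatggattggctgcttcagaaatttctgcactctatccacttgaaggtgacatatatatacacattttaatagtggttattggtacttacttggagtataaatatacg

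The FRK1 window holds TTGAC 3 times, beginning 119, 47 and 29 bases before the start. The PR5 window holds it 1 time, on the opposite strand, reaching from 165 bases before the start, and the ALD1 window holds none. Of the 27443 windows of this length before protein-coding genes, 50.4% hold TTGAC at least once and 5.07% hold it at least 3 times. TGACG, present in 21.3% of all windows, is in none of the 3 windows. CGTGTG and CGTGCG, which are not the only letters linked to brassinosteroid-regulated factors, occur in 6.11% and 1.78% of all windows. Neither is in these 3. CACGTG (the G-box, 7.09% of windows) is also in none of them. CANNTG, a wider pattern that includes the G-box, is present 1 time before PR5, 2 times before FRK1 and 2 times before ALD1, and in 61.9% of all windows. TTGAC and TGACG would overlap in TTGACG. These are matches of letters only.

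The values are normalized read abundances as the authors deposited them, not divided by gene length, and are called units below. Every gene in the table had already been selected by the authors as different between the genotypes. A call here is therefore not independent evidence of a difference, and a gene outside the table is not shown to be unchanged. BIC1 itself (AT3G52740) stood at 409, 351 and 259.8 units in the wild type and at 16272, 14597 and 21868 units in BIC1-YFP, which fits the labels. Total reads per library are unknown. The test was limma on log2(value + 1) over the 1531 genes that passed a filter on low values, as all 3 genes did, and an adjusted p under 0.05 counts as a call. Of the tested genes, 76.6% were called, 37.6% as higher and 39.1% as lower in BIC1-YFP, and for 76.0% the genotypes shared no range of values. Calls and non-overlap of single genes are read against these shares.

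PR5 fell in BIC1-YFP. It measured 185, 177 and 188 units in wild-type replicates 1, 2 and 3, and 59.1, 63.1 and 65.1 units in BIC1-YFP replicates 1, 2 and 3. All BIC1-YFP libraries were low, and the nearest libraries of the genotypes differed by 2.71-fold. The mean went from 183 ± 6.11 to 62.4 ± 3.07 units (SD, n = 3), a 2.93-fold lower level. The log2 fold change was -1.54 (SE 0.18, 95% interval -1.95 to -1.12, limma, adjusted p = 0.0023). By p-value it ranked 29 among the tested genes. The libraries of a genotype lay close together, with an SD of 3.33% of the mean in the wild type and 4.92% in BIC1-YFP. If 1 unit is about 1 read, counting error alone would give SDs of 13.5 and 7.90 units, above the 6.11 and 3.07 measured over 3 libraries each. Since whole seedlings were sampled, fewer cells of a type and less RNA per cell cannot be told apart for this or any other gene here.

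FRK1 fell by a similar factor from a lower and more variable level. It measured 69.2, 28.7 and 46.9 units in wild-type replicates 1, 2 and 3, and 13.02, 17.2 and 14.6 units in BIC1-YFP replicates 1, 2 and 3. The genotypes did not overlap, but wild-type replicate 2 was only 1.66-fold above the highest BIC1-YFP library. The mean went from 48.3 ± 20.3 to 14.9 ± 2.14 units (SD, n = 3), a 3.23-fold lower level. The log2 fold change was -1.55 (SE 0.36, 95% interval -2.41 to -0.69, limma, adjusted p = 0.015). The wild-type SD was 42.0% of the mean, against 14.3% in BIC1-YFP. FRK1 overlaps the gene AT2G19180 on the opposite strand by 175 bases at its 3' end, and 9 of its 2651 windows of 50 bases are shared with that transcript. The sources used here do not say whether the authors' counting used strand, so reads from that stretch cannot be assigned to either gene. PR5 and ALD1 share no window of 50 bases with another annotated transcript.

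ALD1 moved the other way, from a few reads to a low but clear level. It measured 2.01, 1.64 and 1.25 units in wild-type replicates 1, 2 and 3, and 14.0, 10.2 and 10.8 units in BIC1-YFP replicates 1, 2 and 3. Every BIC1-YFP library lay above every wild-type library, the nearest by 5.08-fold. The mean went from 1.63 ± 0.383 to 11.7 ± 2.04 units (SD, n = 3), a 7.16-fold higher level. The log2 fold change was 2.27 (SE 0.39, 95% interval 1.34 to 3.19, limma, adjusted p = 0.0066). The pseudocount of 1 makes this smaller than the log2 ratio of the means, 2.84. Only 3.92% of the tested genes had a lower mean over the 6 libraries.

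**Figure D1:**
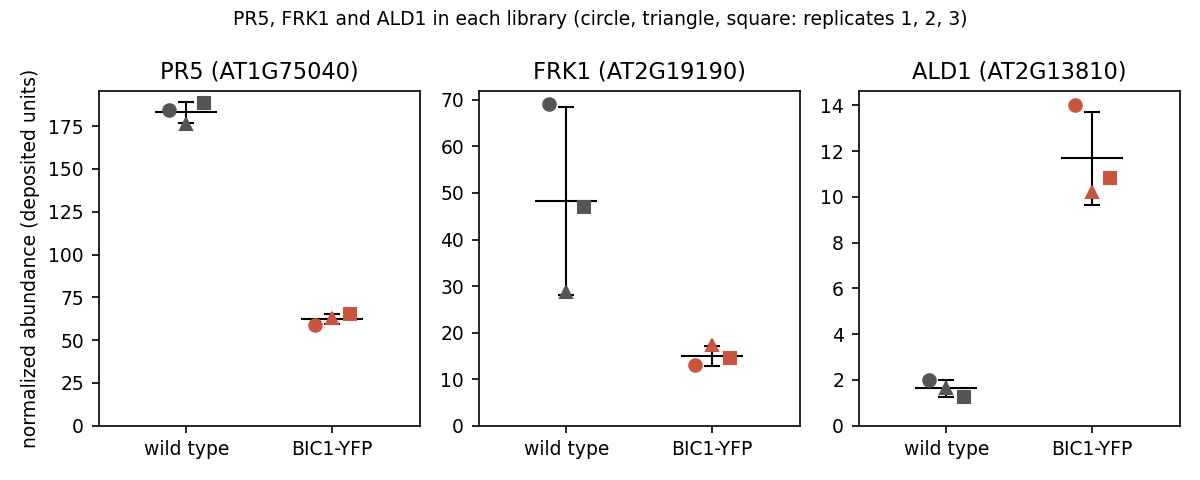
Normalized abundance (deposited units, axes from 0) of PR5, FRK1 and ALD1 in the 3 wild-type and 3 BIC1-YFP libraries; lines and bars are the mean and SD. PR5 sits at 177 to 188 units in the wild type and 59.1 to 65.1 in BIC1-YFP, FRK1 spreads from 28.7 to 69.2 in the wild type, and ALD1 rises from under 2.1 to at least 10.2 units.

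The wild-type level of ALD1 rests on very few reads. Low values of all genes fall in separate bands: in wild-type replicate 1 they run from 1.01 to 1.02 and from 2.01 to 2.02 units, and in wild-type replicate 3 from 1.13 to 1.44 and from 2.23 to 2.58. In wild-type replicate 2 the corresponding bands run from 0.400 to 0.835 and from 1.40 to 1.72 units. ALD1 lies in the second band above 0 in replicates 1 and 2 and in the first in replicate 3. If each band is 1 read, these values stand for 2, 2 and 1 reads, 5 in all, with an exact 95% Poisson interval of 1.62 to 11.7. Taking 5 reads against the 35.1 units summed over BIC1-YFP as 35 reads gives a ratio of 7, with an exact 95% interval of 2.73 to 22.9. Both intervals cover counting error only.

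**Figure D2:**
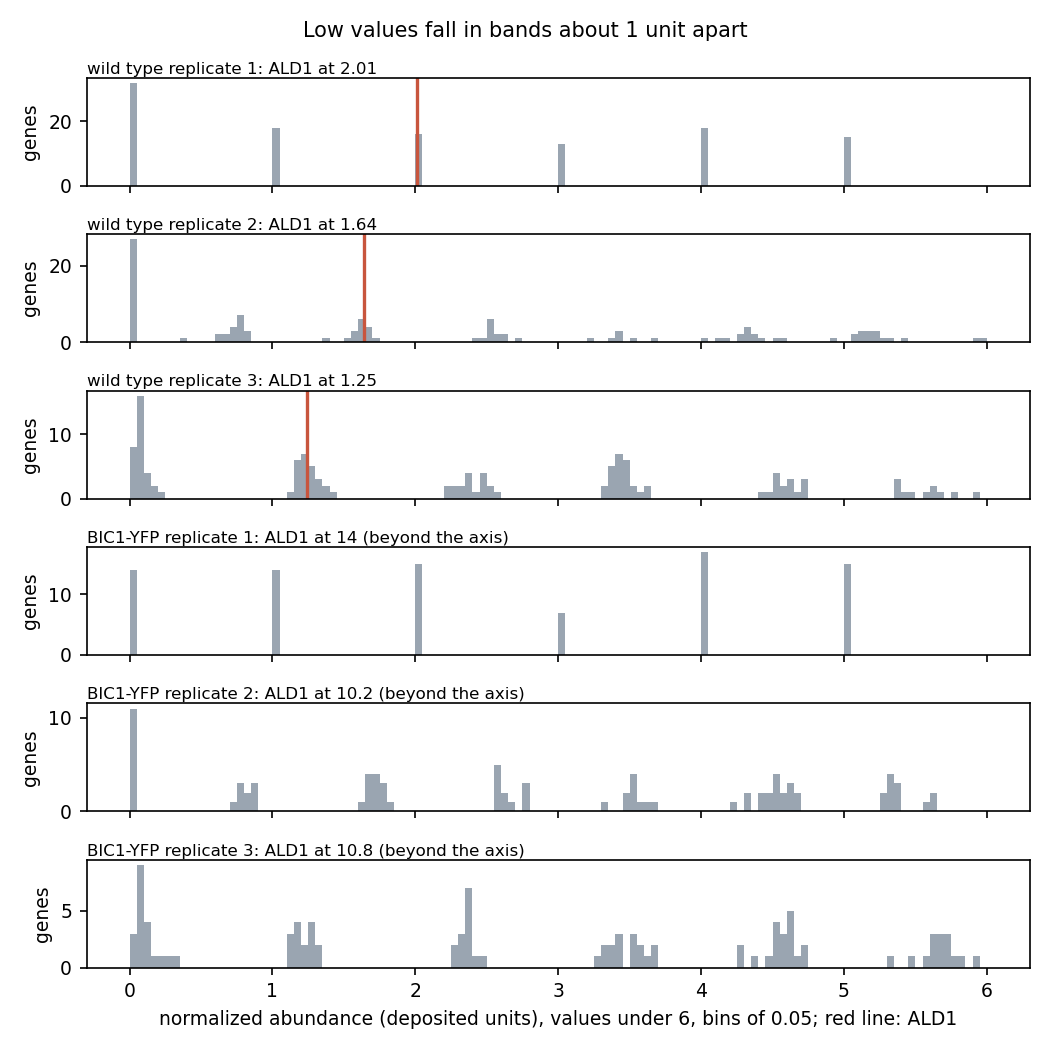
Number of genes (vertical axis) by normalized abundance in deposited units under 6 (bins of 0.05) in each of the 6 libraries, with a red line at ALD1. Values gather in bands about 1 unit apart, and ALD1 falls on a band at 2.01, 1.64 and 1.25 units in the wild type, while its BIC1-YFP values of 14.0, 10.2 and 10.8 lie beyond the axis.

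Divided by transcript length, the wild-type level was 167 ± 5.58 units per kilobase for PR5, 17.9 ± 7.51 for FRK1 and 1.04 ± 0.244 for ALD1 (SD, n = 3). The libraries of neighbouring genes in this order did not overlap. In BIC1-YFP, PR5 stayed highest at 57.0 ± 2.81 units per kilobase, followed by ALD1 at 7.44 ± 1.30 and FRK1 at 5.53 ± 0.791. The lowest ALD1 library (6.502) and the highest FRK1 library (6.39) were almost level, so the order of these neighbours in BIC1-YFP is not separated beyond their spread. With 3 libraries against 3, an exact permutation test (two-sided) of each gene between the genotypes gives p = 0.1, which is the smallest it can give. Each of the 3 calls held with any 1 of the 6 libraries left out: the largest limma adjusted p was 0.016 for PR5, 0.042 for FRK1 and 0.027 for ALD1. Genes outside the table were also counted as tests that do not pass, over 21574 tests, the larger minimum that the deposited p-values imply. The limma adjusted p was then 0.032 for PR5, 0.093 for ALD1 and 0.21 for FRK1, so PR5 alone of the 3 stayed under 0.05.

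**Figure D3:**
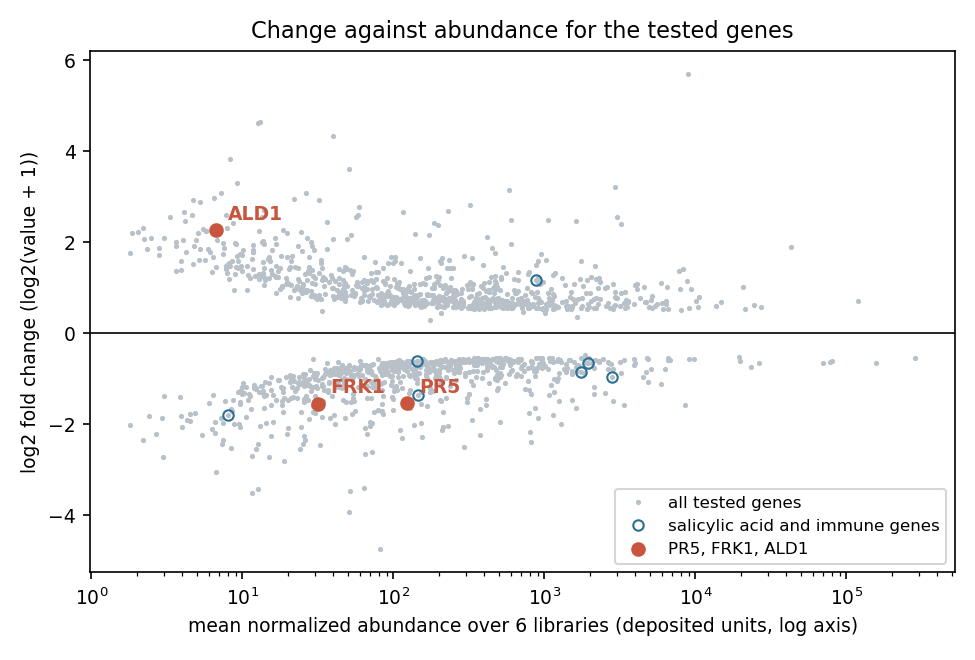
Log2 fold change of BIC1-YFP over wild type, on log2(value + 1), against the mean normalized abundance over the 6 libraries (log axis) for the 1531 tested genes. ALD1 lies at 2.27 among the weakest genes, and FRK1 and PR5 lie at -1.55 and -1.54; few genes lie near 0, since the table holds only genes the authors selected.

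The fold changes in the authors' deposited table are not all on 1 scale. In the authors' deposited table the log2 fold change of PR5 is -1.26, which is 0.811 times the log2 ratio of the deposited means. For FRK1 the authors' deposited table gives -0.89, or 0.523 times that ratio, and for ALD1 it gives 3.94, or 1.39 times. Over all genes of the authors' deposited table, 645 have a smaller factor, with a median of 0.806, and 892 a larger one, with a median of 1.44. The authors' deposited table gives adjusted p-values of 2.0e-10 for PR5, 0.0040 for FRK1 and 2.8e-04 for ALD1. Folds recomputed from the library values were used throughout for this reason.

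Of the salicylic acid and immune genes in the table, more were called lower than higher in BIC1-YFP. A list of 76 salicylic acid and immune genes, PR5, FRK1 and ALD1 included, had 10 members in the table. The list was written with earlier results of these data known. Of the 10, 2 rose and 6 fell, and 2 did not pass the test. Outside PR5, FRK1 and ALD1, the genes WRKY60, AZI1, PR4 and CYP81F2 fell and UGT74F2 rose. EARLI1 and PR2 did not pass. Over all tested genes 37.6% rose and 39.1% fell. The genotypes did not overlap for 9 of the 10, against 76.0% of all tested genes. A lower mean log2 value was found for 8, against 47.5% of all tested genes. The median log2 fold change of the 10 was -0.91. That of all tested genes, 0.56, is no typical change, since few genes lie near 0. PR1, the most widely used salicylic acid marker, is not among the genes in the table. None of the 10 receptors, co-regulators and signalling genes of salicylic acid (NPR1, EDS1 and PAD4 among them) and none of the 15 pattern receptors and early kinases (FLS2 and BAK1 among them) is in it either. Without BIC1-YFP replicate 2, 5 of the 10 were called, 1 higher and 4 lower, against 8 with all libraries. Calls over all tested genes fell from 1173 to 469 in the same setting.

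Of the 12 genes of salicylic acid synthesis and turnover, only UGT74F2 (AT2G43820), which attaches glucose to salicylic acid, was listed. It measured 516, 359.8 and 797 units in the wild type and 997, 1235 and 1342 in BIC1-YFP. The mean rose 2.14-fold (limma, log2 fold change 1.16 with SE 0.30, adjusted p = 0.018), and the call was lost without BIC1-YFP replicate 2 (limma, adjusted p = 0.056). Of 17 transcription factors, only WRKY60 (AT2G25000) was listed, at 207, 175 and 137 units in the wild type and 114, 114 and 107 in BIC1-YFP. It fell 1.55-fold (limma, adjusted p = 0.034). That call held only when wild-type replicate 3 was the library left out: the limma adjusted p was 0.10 and 0.085 on dropping wild-type replicates 1 and 2, and 0.062, 0.081 and 0.086 on dropping BIC1-YFP replicates 1, 2 and 3.

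The pipecolic acid and systemic resistance list of 5 genes had ALD1, AZI1 and EARLI1 in the table. FMO1, the enzyme after pipecolic acid in this route, was not in it. AZI1 (AT4G12470), a lipid transfer-like protein linked to priming of systemic resistance, measured 3162, 1365 and 2323 units in the wild type and 1239.7, 1249 and 1096 in BIC1-YFP. It fell 1.91-fold (limma, adjusted p = 0.035), the opposite direction to ALD1. Its adjusted p was 0.088 and 0.066 on dropping wild-type replicates 1 and 3, and 0.062, 0.079 and 0.083 on dropping BIC1-YFP replicates 1, 2 and 3 (limma). Without wild-type replicate 2 the AZI1 log2 fold change was -1.18, and it was -0.58 without wild-type replicate 1. Its close relative EARLI1 (AT4G12480) stood at 2470 ± 1322 and 1406 ± 299.8 units and did not pass (limma, adjusted p = 0.18), with overlapping genotypes. EARLI1 passed without wild-type replicate 2 (log2 fold change -1.18, limma, adjusted p = 0.024). It also passed when libraries were paired by replicate number (limma, adjusted p = 0.043).

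Of the 5 pathogenesis-related genes, PR5, PR4 and PR2 were listed. All had lower means in BIC1-YFP, where 47.5% of tested genes were lower. PR4 (AT3G04720), a chitin-binding protein better known for ethylene and jasmonate responses, measured 3676, 3827 and 3667 units in the wild type and 1747, 1922 and 2067 in BIC1-YFP. It fell 1.95-fold (limma, log2 fold change -0.96 with SE 0.12, adjusted p = 0.0033) and held with any 1 library left out; the SD was 2.42% of the mean in the wild type and 8.38% in BIC1-YFP. PR2 (AT3G57260), a glucanase and salicylic acid marker, measured 11.0, 9.95 and 15.1 units in the wild type and 7.01, 4.49 and 0.133 in BIC1-YFP. The PR2 genotypes did not overlap, but it did not pass (limma, log2 fold change -1.80 with SE 0.74, adjusted p = 0.057), and its BIC1-YFP replicate 3 value lies in the band at 0. Without BIC1-YFP replicate 1 PR2 passed (log2 fold change -2.37, limma, adjusted p = 0.039), and without BIC1-YFP replicate 3 it was at -0.95 (limma, adjusted p = 0.092). PR2 also passed when libraries were paired by replicate number (limma, adjusted p = 0.048).

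Of the 12 pattern-induced genes, FRK1 and CYP81F2 were listed and both were called lower, against 39.1% of all tested genes. CYP81F2 (AT5G57220), a cytochrome P450 of indole glucosinolate defence, measured 142, 193 and 297 units in the wild type and 67.1, 71.3 and 96.9 in BIC1-YFP. It fell 2.69-fold (limma, log2 fold change -1.37 with SE 0.31, adjusted p = 0.014), a call that held with any 1 library left out. FRK1, AZI1, EARLI1, UGT74F2, PR2 and PR5 were each lowest in wild-type replicate 2 among the wild-type libraries, 6 of the 10 listed genes. Over all tested genes this was so for 24.7%. The gap was 2.41-fold from lowest to highest for FRK1 but 1.07-fold for PR5.

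**Figure D4:**
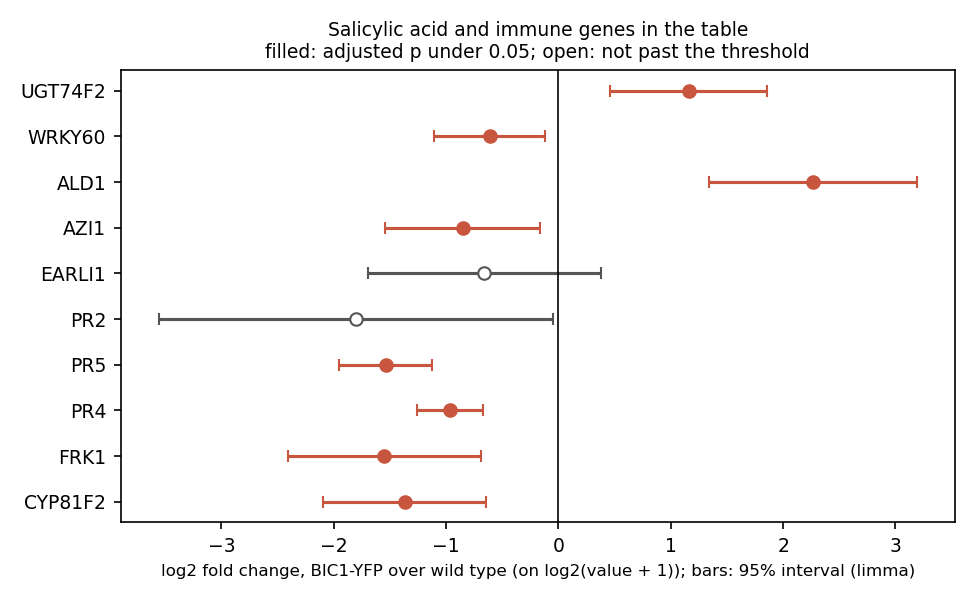
Log2 fold change of BIC1-YFP over wild type, on log2(value + 1), with 95% limma intervals for the 10 salicylic acid and immune genes in the table. Only UGT74F2 (1.16) and ALD1 (2.27) lie above 0; open points mark EARLI1 and PR2, which did not pass the test.

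Relatives of the 3 genes were picked from the table by their descriptions. With FRK1, 13 leucine-rich repeat or malectin-like receptor kinases were listed, all with a lower mean in BIC1-YFP, where 47.5% of tested genes were lower. Of these, 12 were called lower, against 39.1% of all tested genes, and the median log2 fold change over the 13 was -0.995. The largest falls beside FRK1 were AT1G29720, from 125 ± 11.4 to 19.9 ± 5.02 units (6.28-fold lower), AT3G46370, from 45.4 ± 7.21 to 12.9 ± 1.599 (3.51-fold), and AT1G35710, from 126 ± 24.6 to 39.5 ± 17.1 (3.19-fold). The limma adjusted p of these 3 lay between 0.0017 and 0.0094, and all 3 held with any 1 library left out. Of the 13 kinases, 7 were called on dropping wild-type replicate 1 and 5 on dropping wild-type replicate 2. On dropping BIC1-YFP replicates 2 and 3, 5 and 6 were called. Calls over all tested genes fell too, from 1173 with all libraries to 623, 625, 469 and 715 in the same settings. Without wild-type replicate 3, 12 kinases were called, and without BIC1-YFP replicate 1, 11 were. Calls over all tested genes were then 1218 and 983.

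With PR5, 5 genes with a thaumatin domain were listed, and they went both ways. AT1G70250 and AT4G18250, which are receptor kinases with such a domain, fell 1.69-fold and 2.43-fold (limma, adjusted p = 0.015 and 0.031). AT5G40020 rose from 65.2 ± 10.09 to 108 ± 17.9 units and AT1G19320 from 2.47 ± 2.16 to 9.36 ± 2.38 (limma, adjusted p = 0.030 and 0.042). AT1G70250 held with any 1 library left out. The other 3 each lost the call in several cases, with a limma adjusted p up to 0.099: AT4G18250 on dropping replicate 1 or 3 of the wild type or 2 or 3 of BIC1-YFP, AT5G40020 on dropping replicate 1 of the wild type or 2 or 3 of BIC1-YFP, and AT1G19320 on dropping replicate 2 of the wild type or any of BIC1-YFP. The genes beside PR5 on the chromosome, the thaumatin-like gene TLP-3 (AT1G75030) and AT1G75050, were not in the table.

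Of 7 genes described as aminotransferases or of that fold, ALD1 and ACS4 (AT2G22810), an enzyme of ethylene synthesis, rose and PYD4 (AT3G08860) fell. ACS4 measured 4.51 ± 2.92 and 19.1 ± 8.28 units (limma, adjusted p = 0.026), a call lost without BIC1-YFP replicate 1 or 2 (limma, adjusted p up to 0.074). PYD4 went from 115 ± 18.8 to 53.0 ± 5.53 units (limma, adjusted p = 0.010) and held with any 1 library left out. BCAT-2, ACS11, HISN6B and CORI3 did not pass.

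**Figure D5:**
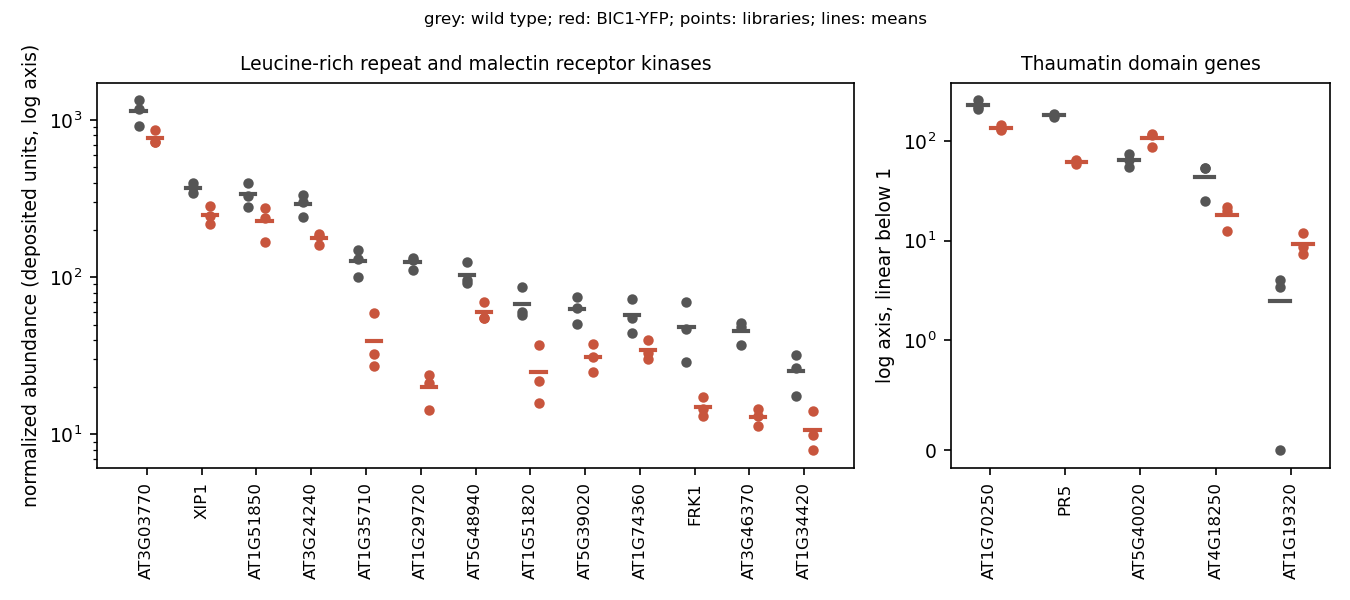
Normalized abundance (deposited units, log axis; linear below 1 in the right panel) in each library for 13 receptor kinases and 5 thaumatin domain genes of the table, with means as lines. Every receptor kinase has a lower BIC1-YFP mean, whereas AT5G40020 and AT1G19320 are higher and PR5, AT1G70250 and AT4G18250 lower.

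The patterns most like each gene were ranked by Pearson correlation of log2(value + 1) over the 6 libraries, among 1477 tested genes with a mean of at least 10 units in the higher genotype. All such genes were selected for a genotype difference, so high values are common: 293 genes reached 0.9 with PR5, 110 with FRK1 and 199 with ALD1. Closest to PR5 were AT1G78140 (r = 0.999), AT5G11840, PES1 (AT1G54570), LHCB4.3 (AT2G40100) and AT5G62210. AT1G78140, described as a methyltransferase, stood at 666, 652 and 662 units in the wild type and 379, 390.2 and 405 in BIC1-YFP. Closest to FRK1 were CYP71B36 (AT3G26320, r = 0.984), AT5G42530, the receptor-like kinase RLK1 (AT5G60900), the exocyst gene EXO70E2 (AT5G61010) and AT1G36622. RLK1 measured 25.1, 8.05 and 11.98 units in the wild type and 3.01, 2.61 and 2.37 in BIC1-YFP, with the same order of the wild-type libraries as FRK1. Closest to ALD1 were SFH3 (AT2G21540, r = 0.998), LHCB6 (AT1G15820), AT3G62040, AT4G09490 and AT3G05730, whose levels changed far less than that of ALD1. SFH3, for example, went from 312 to 523 units on average.

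Of the 6 tissue markers looked up, 4 were in the table. The leaf gene RBCS1A stood at 340024 ± 33711 and 232483 ± 15455 units, the root gene PRP3 at 257 ± 65.7 and 143 ± 12.2, and the floral gene SEP1 at 32.8 ± 8.20 and 6.53 ± 2.93. These 3 were called lower in BIC1-YFP (limma, adjusted p between 0.0066 and 0.023). RBCS1A alone does not stand for leaf tissue, since other photosynthesis genes went both ways. CAB1 rose (log2 fold change 0.71, limma, adjusted p = 0.0048). The light-harvesting genes LHB1B1, LHB1B2, LHCB2.2, LHCB3, LHCA4 and LHCB6 were also called higher, while LHCB4.3 went from 5955 to 3068 units on average. These are examples, and photosynthesis genes were not counted as a set. The seed storage gene CRA1 reached 83.6 units in 1 library, BIC1-YFP replicate 2, and no more than 6.94 in the others. The part of tissue make-up in the defence gene values was not tested.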

How the data were processed

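Per the labels' protocols, seedling RNA was isolated with Trizol and libraries were run on Illumina HiSeq. The submitters' processing notes name Cufflinks and the genome TAIR10, with no version of the tool. The signal per gene and library is a normalized read abundance that the authors deposited. The sources used here do not give its scaling or the test behind their p-values. It is neither FPKM nor whole counts: values under 15 lie within 0.05 of a whole number for 95.9% and 100% of genes in replicate 1 of the wild type and of BIC1-YFP, but for 6.09% to 17.4% in the others. Alongside, the authors deposited p-values, adjusted p-values (the largest 0.0499) and a log2 fold change for each gene.

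Genes reaching 1 unit in 3 libraries or more were compared on log2(value + 1) with limma 3.58.1 (variance trend) in R 4.3.3. Adjustment was by Benjamini-Hochberg over 1531 genes. The procedure was also run on simulated counts in which most genes did not differ, unlike this table, so that run does not bear on the calls here. Errors after ± are SDs, SE is limma's, and folds are ratios of means. The members and gene lists were chosen with earlier results of these data known. Of 77 entries written for the immune list, SARD4 was dropped because its symbol is not in the RefSeq annotation. Genes named are the 3 members, listed genes, relatives by description (for receptor kinases the 3 largest changes) and the 5 most correlated genes per member. Alternatives changed the pseudocount, filter, scaling, trend, block, adjustment and libraries.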

Additional observations from a re-analysis of the deposited data

How the results depend on the processing

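PR5, FRK1 and ALD1 kept their direction under all 15 alternatives, and PR5 kept its call in each. FRK1 (log2 fold change -1.55) and ALD1 (2.27) lost theirs only under adjustment over 21574 tests, with limma adjusted p of 0.21 and 0.093. The deposited p-values of the 645 genes with the smaller factor imply at least that number. Those of the 892 others, ALD1 among them, imply at least 13231, a number not used here. Adjustment over 21574 tests also lowered the calls over all tested genes from 1173 to 50 and those among immune genes from 8 to 2 (PR5 and PR4). With 1 library left out, log2 fold changes ranged from -1.57 to -1.50 for PR5, -1.87 to -1.25 for FRK1 and 2.14 to 2.37 for ALD1. Calls over all genes then ranged from 469 (without BIC1-YFP replicate 2) to 1218 and those among immune genes from 5 to 8; calls fell to 623 and 625 without wild-type replicates 1 and 2 and to 715 without BIC1-YFP replicate 3. The cause was not tested. The limma log2 fold change of ALD1 was 1.33 with a pseudocount of 5 and 2.52 with 0.5, by construction of the scale. Rescaling by median ratios moved the median log2 fold change of all tested genes by -0.08. Deviations of same-numbered libraries correlated at 0.42, 0.04 and 0.44. Wild-type replicate 1 correlated at -0.43 with BIC1-YFP replicate 3, and wild-type replicate 3 at -0.40 with BIC1-YFP replicate 1. Every library except BIC1-YFP replicate 2 correlated best with its own number. That library correlated at 0.09 with wild-type replicate 1. The lowest band of values also went by number. It ran from 0.00138 to 0.00656 units in wild-type replicate 1 and from 0.000558 to 0.00286 in BIC1-YFP replicate 1. Replicate 2 of both genotypes had exactly 0 there. In replicate 3 it ran from 0.0388 to 0.219 in the wild type and from 0.0385 to 0.344 in BIC1-YFP. Equal numbers thus share a feature of the values, but whether they mark paired samples was not settled. The main fit did not pair the samples. With the replicate block, which pairs equal numbers, 1445 genes and 10 immune genes were called. EARLI1 and PR2 then passed (limma adjusted p of 0.043 and 0.048), and AZI1 and WRKY60 stood at 0.014 and 0.015. Log2 fold changes of PR5, FRK1 and ALD1 stayed at -1.54, -1.55 and 2.27 (limma adjusted p of 0.0010, 0.0094 and 0.0061). Depth per library is unknown, and the wild-type level of ALD1 stands for 5 reads if each band of low values is 1 read.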
